A study of Mus musculus with 11 samples.

Results

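The 10 antigen presentation genes were a set of major histocompatibility complex (MHC) genes listed by name, with earlier results of these data known. They were taken out of 27179 genes counted in each of 11 RNA-seq libraries of mouse mammary epithelial cells. They comprised the class I genes *H2-K1*, *H2-D1*, *B2m* and *Tap1* and the class II genes *H2-Aa*, *H2-Ab1*, *H2-Eb1*, *H2-DMa*, *Cd74* and *Ciita*. Of these, 9 passed the filter on low counts (over 0.5 CPM, the counts scaled to a common library size, in at least 3 libraries), as did 15422 genes in all, and *H2-Eb1* did not. The libraries came from a study that screened for regulators of mammary stem and progenitor cells with short hairpin RNAs, and were made to judge mammospheres as the culture for that screen and to see whether its candidate genes were expressed.

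MaSC/basal (CD29hi CD24+, enriched for mammary stem cells), LP (CD29lo CD24+ CD61+, luminal progenitors) and ML (CD29lo CD24+ CD61-, mature luminal) cells were sorted from mammary glands of wild type FVB/N virgin females, with 3 libraries each. The labels give the mice as 8 weeks of age and the methods of the study as 8 to 10 weeks. The sort gated out cells bearing CD45, CD31 or TER-119, which mark leukocytes, endothelium and erythroid cells. One library was made from mammospheres, which are MaSC/basal cells grown for 7 days without attachment, and one from Comma Dβ, an established line derived from mid-pregnancy BALB/c mammary tissue. All libraries were labelled wild type, but the submitted name of MaSC/basal replicate 1 contained p53, and that of the mammosphere library may have joined more than 1 culture. The labels place MaSC/basal 1, LP 1, ML 1 and the mammospheres in batch 1, MaSC/basal 2 and 3, LP 2 and ML 2 in batch 2, and LP 3, ML 3 and Comma Dβ in batch 3. The methods of the study call the 3 samples of each population independent, without saying whether each came from other mice, and p-values measure the spread between these samples.

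Between 19958838 and 75795034 reads were counted on genes per library, and the shallowest of the primary libraries were LP 3 and ML 3 (batch 3). The labelled populations carried their markers. All 4 basal keratin and myoepithelial markers tested were higher in MaSC/basal than in LP and ML libraries, all 4 luminal markers were lower, 3 of 4 luminal progenitor markers were higher in LP than in ML, and all 4 mature luminal markers were lower in LP than in ML.

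Class I molecules display peptides from the inside of a cell to CD8+ T cells and are found on nearly every nucleated cell. Their heavy chain, encoded by *H2-K1* or *H2-D1* (and by *H2-L* in some strains), pairs with β2-microglobulin (*B2m*), and the peptides are cut by the proteasome and carried into the endoplasmic reticulum by the TAP transporter (*Tap1* and *Tap2*). Class II molecules display extracellular peptides to CD4+ T cells and are characteristic of dendritic cells, macrophages and B cells, although epithelia can make them after exposure to interferon-γ. Their α and β chains (*H2-Aa* with *H2-Ab1*, and *H2-Eb1* for the E molecule) assemble on the invariant chain (*Cd74*), the H2-DM dimer (*H2-DMa* with *H2-DMb1* or *H2-DMb2*) exchanges the invariant chain remnant for peptide, and *Ciita* is the coactivator that switches the class II genes on.

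Most of these genes lie in the MHC on chromosome 17 of GRCm38 (mm10): *H2-K1* at chr17:33996012-34000619, *H2-DMa* at chr17:34119693-34139101, *Tap1* at chr17:34187556-34197225, *H2-Ab1* at chr17:34263227-34269418, *H2-Aa* at chr17:34282744-34287823, *H2-Eb1* at chr17:34305867-34316674 and *H2-D1* at chr17:35263094-35267497. *B2m* (chr2:122147687-122153082), *Ciita* (chr16:10480014-10531064) and *Cd74* lie elsewhere. All 10 are protein coding, and counts were summed over exons. In a GENCODE annotation, exons of *Tap1* share 212 bases (7.18% of its exon bases) with *Psmb9* on the other strand, and exons of *Ciita* share 111 bases (1.35%) with *Dexi* on the other strand. The counting is not stated to use strand, so reads from these bases cannot be told apart. The reference genome carries the H2b haplotype of C57BL/6, whereas FVB/N carries H2q and BALB/c H2d. The heavy chains and the class II chains are among the most polymorphic genes of the mouse, and reads from a diverged allele or from a near-identical class I paralog may be lost or assigned to another gene. Levels of *H2-K1*, *H2-D1*, *H2-Aa*, *H2-Ab1* and *H2-Eb1*, and of the Q and T region genes, are therefore uncertain. Differences between the primary populations are within 1 strain, whereas one between Comma Dβ and the FVB/N libraries cannot be told apart from it.

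RefSeq promoters (GRCm38.p6) were held for 7 of the 10 genes. The 150 bases before the start are shown for the class I genes that were lower in MaSC/basal than in ML libraries and for the class II α chain, and capitals mark matches to CCAAT, the Y box bound by NF-Y (ATTGG on the other strand), and to the core of an interferon-stimulated response element, which is GAAA followed by any 2 bases and GAAA again, searched on both strands. *H2-K1* lies on the minus strand, as does *H2-Aa*, and all are written 5′ to 3′ along the gene.
H2-K1 (chr17:34000348-34000497, minus strand): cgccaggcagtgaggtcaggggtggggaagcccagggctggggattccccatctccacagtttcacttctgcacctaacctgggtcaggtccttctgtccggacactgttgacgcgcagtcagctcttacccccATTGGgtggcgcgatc
H2-D1 (chr17:35262944-35263093, plus strand): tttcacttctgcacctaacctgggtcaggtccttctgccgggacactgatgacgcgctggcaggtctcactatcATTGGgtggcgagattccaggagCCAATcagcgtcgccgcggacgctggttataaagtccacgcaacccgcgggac
B2m (chr2:122147537-122147686, plus strand): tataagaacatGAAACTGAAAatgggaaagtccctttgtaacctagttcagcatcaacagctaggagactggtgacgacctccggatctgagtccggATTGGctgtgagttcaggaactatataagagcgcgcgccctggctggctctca
H2-Aa (chr17:34287824-34287973, minus strand): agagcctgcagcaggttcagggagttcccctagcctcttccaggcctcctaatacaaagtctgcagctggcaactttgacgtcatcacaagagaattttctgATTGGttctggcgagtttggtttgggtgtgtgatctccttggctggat
Every window shown held ATTGG, which lay 53 to 49 bases before the start in *B2m*, 48 to 44 in *H2-Aa* and 76 to 72 in *H2-D1*, and *H2-D1* also held CCAAT at 53 to 49. In *H2-K1* it lay 16 to 12 bases before the start used here, and this window lies inside the gene span given above. Another start for this gene had ATTGG at 30 to 26 bases before it and CCAAT at 6 to 2. In *H2-Eb1*, whose window is not shown, ATTGG lay at 59 to 55 and CCAAT at 35 to 31. *B2m* was the only one of the 7 genes with an exact match to the interferon element, at 139 to 130 bases before the start. Near matches were not searched, so a window without a match may still hold a variant of the element. The windows of *Tap1* and *H2-DMa* held neither motif. Among 32851 promoter windows of this length, 24.5% held the Y box on either strand and 1.59% the interferon element, so the former is common. A match is a description of the letters and not a binding site.

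Per length, *H2-K1*, *H2-D1* and *B2m* were by far the most abundant of the 10 genes. In RPKM (CPM divided by the deposited exon length in kilobases) the 9 primary libraries ranged from 281 to 532 for *H2-K1*, from 310 to 753 for *H2-D1* and from 405 to 932 for *B2m*. The level of *Tap1* was 14.5 to 30.4 RPKM. Of the class II genes, *Cd74* reached 1.22 to 14.5 RPKM, *H2-DMa* 2.66 to 10.7, *H2-Aa* 0.344 to 4.30 and *H2-Ab1* 0.611 to 3.14. *Ciita*, at 0.0469 to 0.321 RPKM, and *H2-Eb1*, at 0.128 to 0.235 RPKM, were the lowest. Several class II values rested on few reads. *H2-Eb1* had 4 to 22 reads in the primary libraries and was not tested. *Ciita* had 5 reads in LP 3 and 8 in ML 3, and between 14 and 97 in the other primary libraries. *H2-Aa* had 13 to 244 reads and *H2-Ab1* 21 to 199. The class I genes each had at least 951 reads in every primary library.

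The class I heavy chains *H2-K1* and *H2-D1* were lower in MaSC/basal than in either luminal population, and *B2m* was lower than in ML cells, by 0.47 to 1.17 on the log2 scale, while *Tap1* was lowest in LP cells. Values are CPM after TMM scaling of library sizes (trimmed mean of M values), given for replicates 1, 2 and 3. *H2-K1* was at 463, 569 and 549 CPM in MaSC/basal, 757, 827 and 691 in LP and 804, 876 and 860 in ML libraries. Every MaSC/basal library lay under every luminal one, whereas LP and ML overlapped. The log2 difference of MaSC/basal was -0.52 (SE 0.15) from LP, with an adjusted p of 0.0122, and -0.68 (SE 0.15, adjusted p = 0.00272) from ML, and that of LP from ML was -0.16 (SE 0.15, adjusted p = 0.443). Without MaSC/basal replicate 1, the library whose name contained p53, the difference from LP was -0.43 and no longer passed the threshold (adjusted p = 0.0583).

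*H2-D1* was at 548, 538 and 539 CPM in MaSC/basal, 792, 742 and 715 in LP and 1307, 1082 and 1269 in ML libraries. None of the populations overlapped, and the order MaSC/basal, LP, ML held in each step. The log2 differences were -0.47 (SE 0.14, adjusted p = 0.0169) for MaSC/basal from LP, -1.17 (SE 0.14, adjusted p = 6.3e-05) from ML and -0.70 (SE 0.14, adjusted p = 0.00559) for LP from ML. The step from LP was lost without TMM scaling (-0.32, adjusted p = 0.0777), and the step between the luminal populations without batch 3 (-0.65, adjusted p = 0.0505).

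*B2m* was at 348, 396 and 426 CPM in MaSC/basal, 377, 613 and 559 in LP and 584, 703 and 800 in ML libraries. LP 1 lay among the MaSC/basal libraries, and LP 2 lay above the lowest ML library. The log2 difference of MaSC/basal from ML was -0.83 (SE 0.21, adjusted p = 0.00576), and that from LP, -0.40 (SE 0.21), did not pass (adjusted p = 0.118) except without LP replicate 1 (-0.60, adjusted p = 0.0223). LP against ML gave -0.43 (SE 0.21, adjusted p = 0.137), and with batch as a replicate block -0.44 (adjusted p = 0.0415). Within each batch the ML library was above the LP library, which was at 0.645, 0.873 and 0.699 of it in batches 1, 2 and 3.

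*Tap1* was at 69.8, 83.9 and 86.5 CPM in MaSC/basal, 51.8, 42.8 and 50.7 in LP and 89.7, 79.7 and 75.6 in ML libraries. LP was the low population, and MaSC/basal and ML overlapped. MaSC/basal was 0.73 (SE 0.14) above LP on the log2 scale (adjusted p = 0.00112), LP was -0.75 (SE 0.14) from ML (adjusted p = 0.00326), and MaSC/basal differed from ML by -0.03 (SE 0.13, adjusted p = 0.871).

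**Figure D1:**
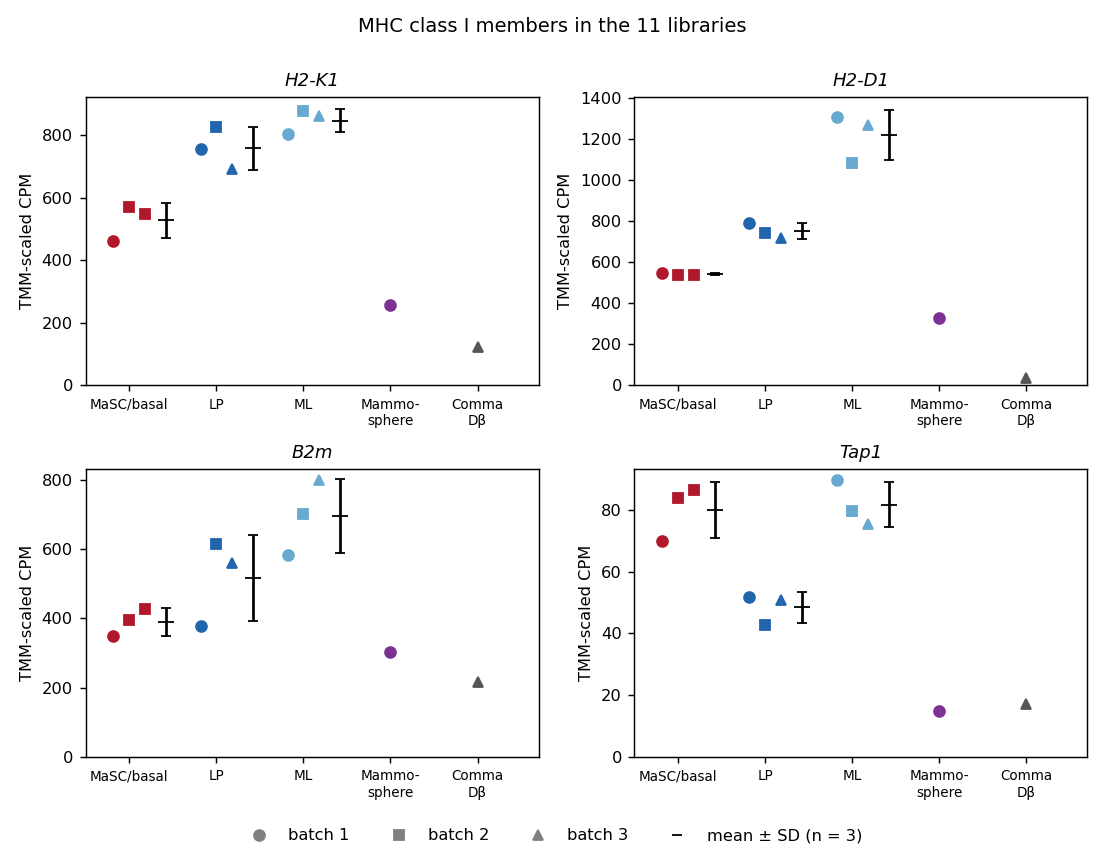
TMM-scaled CPM of *H2-K1*, *H2-D1*, *B2m* and *Tap1* (vertical axes, linear from 0) in each of the 11 libraries (horizontal axis, by population), with marker shape for batch and bars for the mean ± SD of 3 libraries. *H2-D1* lies between 538 and 548 in MaSC/basal and between 1082 and 1307 in ML, *Tap1* is lowest among the primary populations in LP (42.8 to 51.8), and the cultured libraries lie under the primary ones in each panel.

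The class II β chain *H2-Ab1*, the invariant chain *Cd74* and *Ciita* ran the other way and were higher in MaSC/basal than in either luminal population, by 1.41 to 2.03 on the log2 scale. *Cd74* (chr18:60803849-60812652) was at 11.6, 18.5 and 20.5 CPM in MaSC/basal, 4.44, 4.68 and 7.47 in LP and 1.72, 4.65 and 6.06 in ML libraries. Every MaSC/basal library was above every luminal one, by a log2 difference of 1.62 (SE 0.42, adjusted p = 0.00772) from LP and 2.03 (SE 0.43, adjusted p = 0.00214) from ML. LP and ML overlapped (0.41, SE 0.42, adjusted p = 0.482).

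*H2-Ab1* was at 3.07, 2.97 and 3.75 CPM in MaSC/basal, 0.740, 0.729 and 1.60 in LP and 0.820, 0.983 and 1.96 in ML libraries. It too was higher in every MaSC/basal library, with log2 differences of 1.72 (SE 0.41, adjusted p = 0.00520) from LP and 1.41 (SE 0.40, adjusted p = 0.0122) from ML.

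*H2-Aa* was at 2.90, 2.95 and 4.59 CPM in MaSC/basal, 0.564, 0.823 and 2.35 in LP and 0.367, 1.30 and 2.60 in ML libraries. MaSC/basal did not overlap with either luminal population, but the range within each luminal population was wider than its mean, and the log2 differences of 1.54 (SE 0.66, adjusted p = 0.0698) and 1.33 (SE 0.65, adjusted p = 0.103) did not pass the threshold. With batch as a replicate block they were 2.22 (adjusted p = 0.00120) from LP and 2.03 (adjusted p = 0.00151) from ML, and without batch 3, whose LP and ML libraries were the highest of their populations, 2.28 (adjusted p = 0.00834) and 1.98 (adjusted p = 0.0131). The call for this gene thus depended on the fit.

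*Ciita* was at 1.63, 1.12 and 1.83 CPM in MaSC/basal, 0.493, 0.767 and 0.267 in LP and 0.480, 0.611 and 0.364 in ML libraries. Neither luminal population overlapped with MaSC/basal, and the log2 differences were 1.50 (SE 0.39, adjusted p = 0.00818) from LP and 1.60 (SE 0.39, adjusted p = 0.00519) from ML. Unlike *H2-Aa* and *H2-Ab1*, *Ciita* was lowest in LP 3 and ML 3. *H2-Eb1*, the β chain of the E molecule, was at 0.271, 0.299 and 0.226 CPM in MaSC/basal, 0.282, 0.393 and 0.213 in LP and 0.367, 0.292 and 0.273 in ML libraries, which overlapped throughout, and no difference was detectable at this depth.

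*H2-DMa*, a chain of the peptide exchange factor, was at 2.76, 2.17 and 2.99 CPM in MaSC/basal, 2.33, 2.08 and 3.15 in LP and 8.17, 6.87 and 8.33 in ML libraries. ML stood apart from both other populations. The log2 difference from ML was -1.56 (SE 0.24, adjusted p = 0.000265) for MaSC/basal and -1.64 (SE 0.24, adjusted p = 0.00141) for LP, and MaSC/basal differed from LP by 0.09 (SE 0.24, adjusted p = 0.781).

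**Figure D2:**
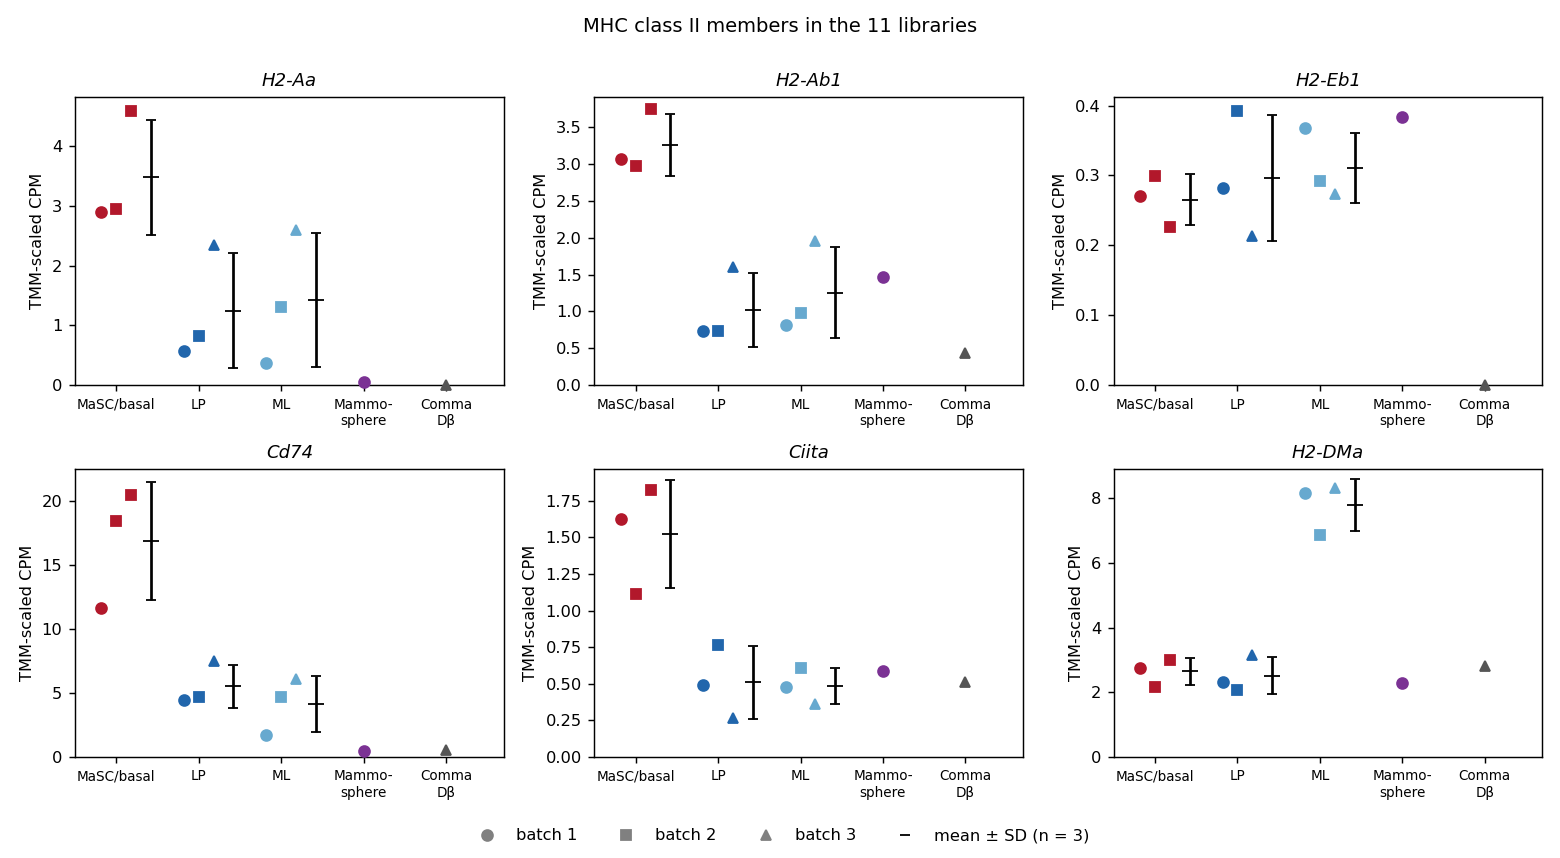
TMM-scaled CPM of the 6 class II genes (vertical axes, linear from 0, scaled separately for each gene) in the 11 libraries, with marker shape for batch and bars for the mean ± SD of 3 libraries. *H2-Aa*, *H2-Ab1*, *Cd74* and *Ciita* are highest in MaSC/basal, *H2-DMa* in ML (6.87 to 8.33), *H2-Eb1* stays under 0.4 in all libraries, and the batch 3 libraries of LP and ML are the highest of their populations for *H2-Aa*, *H2-Ab1* and *Cd74*.

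Counted over the 9 genes tested, MaSC/basal was higher than LP for 4 (*Tap1*, *H2-Ab1*, *Cd74* and *Ciita*) and lower for 2 (*H2-K1* and *H2-D1*), with 3 not called. Over all genes tested 57.4% were called in this comparison, 29.4% higher and 28% lower. MaSC/basal was higher than ML for 3 (*H2-Ab1*, *Cd74* and *Ciita*) and lower for 4 (*H2-K1*, *H2-D1*, *B2m* and *H2-DMa*), with 58.7% of all genes called, 28.9% higher and 29.7% lower. LP was lower than ML for 3 (*H2-D1*, *Tap1* and *H2-DMa*) and higher for 0, with 31.8% of all genes called, 14.3% higher and 17.5% lower. The count of 0 was also 0 at an unadjusted p under 0.05 in edgeR, and 0 at the adjusted threshold with DESeq2 and with limma voom. The counts called are not far from the shares over all genes and are no result about these genes in particular. The median log2 difference of the 9 genes was 0.73, -0.03 and -0.30 in the 3 comparisons, against -0.01 over all genes in each. All 16 of these calls had libraries without overlap. Their direction within every batch that held both populations is fixed by this and is no separate check. Over all genes, 32.6% lay higher without overlap in MaSC/basal than in LP and 31.3% lower. For MaSC/basal against ML the shares were 32.1% and 33.5%, and for LP against ML 21% and 26.9%. Without TMM scaling the split of calls over all genes between LP and ML moved from 2204 higher and 2695 lower to 1581 and 3798, and the median of all genes shifted to 0.14 in MaSC/basal against LP and to -0.19 in LP against ML.

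**Figure D3:**
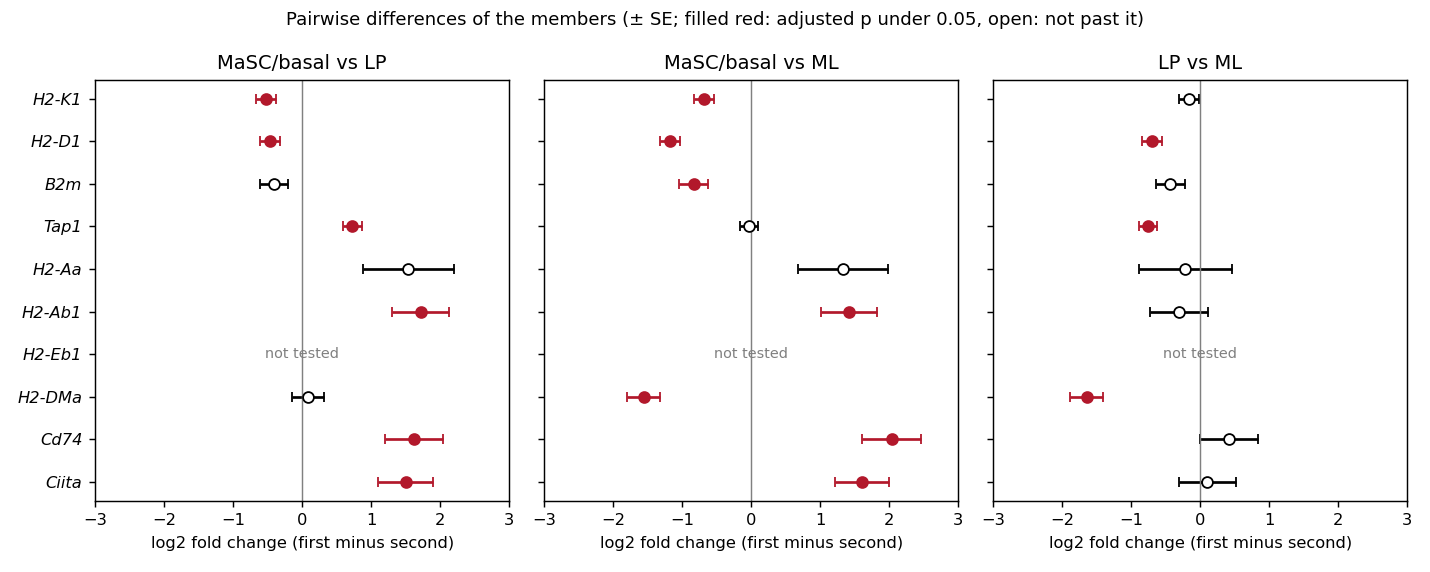
Log2 fold changes (horizontal axes, first population minus second, bars ± SE) of the antigen presentation genes in the 3 comparisons of primary populations, filled where the adjusted p was under 0.05. Against LP and ML the heavy chains lie left of 0 and *H2-Ab1*, *Cd74* and *Ciita* right of it, and *H2-DMa* differs only where ML is compared.

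Genes for the proteins that cut, carry and load class I peptides were more often lower than higher in MaSC/basal cells. Of the 13 genes listed, all tested, 6 were lower and 2 higher than in LP, and 7 were lower and 1 higher than in ML. Over all genes tested 28% were lower and 29.4% higher than in LP, and 29.7% and 28.9% than in ML. The median log2 difference was -0.08 from LP and -0.75 from ML. *Tap2*, the partner of *Tap1* in the transporter, was at 47.2, 49.2 and 44.2 CPM in MaSC/basal, 128, 130 and 138 in LP and 327, 244 and 264 in ML libraries, without overlap. Its log2 difference was -1.50 (SE 0.14, adjusted p = 9.2e-06) from LP and -2.57 (SE 0.14, adjusted p = 3.9e-07) from ML. In *Tap1*, MaSC/basal and ML libraries overlapped. *Psmb8* and *Psmb9*, which encode catalytic subunits of the immunoproteasome and lie beside the TAP genes, followed *Tap2*. *Psmb8* was at 28.0 to 28.5 CPM in MaSC/basal, between 66.1 and 76.2 in LP and between 141 and 187 in ML, and *Psmb9* at 8.00 to 10.6, 15.3 to 23.5 and 39.8 to 66.0. Their log2 differences from ML were -2.51 (SE 0.14, adjusted p = 3.9e-07) and -2.54 (SE 0.24, adjusted p = 1e-05). *Tapbpl*, which edits class I peptides, was higher in MaSC/basal than in LP by 0.64 (SE 0.13, adjusted p = 0.00222).

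*Nlrc5*, the coactivator of class I genes, was higher in MaSC/basal cells, where *H2-K1*, *H2-D1* and *Tap2* were lower. It was at 42.0, 36.4 and 158 CPM in MaSC/basal, 10.5, 18.7 and 14.8 in LP and 16.0, 17.7 and 24.5 in ML libraries. All MaSC/basal libraries were above all luminal ones, and replicate 3 was well above the other MaSC/basal libraries. The log2 difference was 2.42 (SE 0.53, adjusted p = 0.00283) from LP and 2.03 (SE 0.52, adjusted p = 0.00667) from ML, and without MaSC/basal replicate 3 it was 1.43 (adjusted p = 0.00186) and 1.03 (adjusted p = 0.00924).

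Other class I heavy chains were also mostly lower in MaSC/basal, 12 of 17 tested against each luminal population (21 were listed and 19 matched a gene), where 28% of all genes were lower than in LP and 29.7% lower than in ML. Of these 17, *H2-K2*, *H2-T10* and *Cd1d2* are annotated as transcribed pseudogenes, and *H2-K2* and *H2-T10* are among the 12 in each comparison. *H2-M3* and *Fcgrt* were higher than in LP. The median log2 difference was -0.83 from LP and -0.94 from ML. *H2-Q2* was at 4.76 to 5.31 CPM in MaSC/basal, between 14.2 and 19.4 in LP and between 18.7 and 25.5 in ML, and *H2-Q6* at 2.93 to 4.31, 10.0 to 15.2 and 9.43 to 18.0 in the same order. *Hfe*, a relative of class I that acts in iron uptake, was at 2.54 to 3.19, 8.66 to 10.6 and 7.32 to 8.92. *H2-M3*, which presents formylated peptides, was lowest in LP, at 2.11 to 3.04 CPM against 4.78 to 5.78 in MaSC/basal and 5.99 to 7.74 in ML. Since the Q region genes are close copies of each other, their separate values are uncertain.

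Accessory chains and proteases of the class II path were mostly lower in MaSC/basal, the opposite of *H2-Ab1* and *Cd74*. Of 11 tested (15 listed, 14 matched), 8 were lower and 1 higher than in each luminal population, beside the same 28% and 29.7% of all genes lower, and the median log2 difference was -0.90 from LP and -0.92 from ML. *H2-Oa* and *H2-Ob* encode the chains of H2-DO, the inhibitor of H2-DM, and they were high in different luminal populations. *H2-Oa* was at 0.136, 0.120 and 0.0377 CPM in MaSC/basal (8, 6 and 2 reads), 4.37, 2.90 and 2.51 in LP and 0.283, 1.16 and 0.273 in ML libraries. *H2-Ob* was at 0.153, 0.0996 and 0.0941 CPM in MaSC/basal (9, 5 and 5 reads), 0.352, 0.916 and 0.961 in LP and 8.00, 5.66 and 6.10 in ML libraries. LP thus had the α chain and ML the β chain at the higher level, without overlap between them in either gene. The log2 difference of LP from ML was 2.40 (SE 0.56, adjusted p = 0.0106) for *H2-Oa* and -3.14 (SE 0.38, adjusted p = 0.000853) for *H2-Ob*. Without ML replicate 2 that of *H2-Oa* was 3.53 (adjusted p = 0.00127), and its difference of MaSC/basal from ML went from -2.62 (adjusted p = 0.00671) to -1.48 (adjusted p = 0.0511).

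*H2-DMb1* and *H2-DMb2*, near-identical partners of *H2-DMa* whose reads can be split between them, were lowest in MaSC/basal (4.75 to 8.11 and 1.60 to 2.09 CPM), intermediate in LP (11.6 to 14.6 and 3.53 to 3.81) and highest in ML (18.1 to 20.7 and at least 5.69). The LP and ML libraries did not overlap, but this step passed in only 9 (*H2-DMb1*) and 10 (*H2-DMb2*) of 18 alternatives. *H2-DMa* overlapped between MaSC/basal and LP, where *H2-DMb1* did not and differed by -1.05 (SE 0.22, adjusted p = 0.00228). *Ctsl*, a cathepsin that degrades the invariant chain in thymic epithelium, was the class II processing gene that was higher in MaSC/basal, at 846 to 1085 CPM against 452 to 551 in LP and 238 to 308 in ML. *Ctss*, the cathepsin that does so in antigen-presenting cells, stayed between 0.0705 and 1.34 CPM in the primary libraries and was not called. *Ifi30*, a lysosomal thiol reductase, was highest in LP (149 to 196 CPM, against 77.3 to 88.3 in MaSC/basal and 64.1 to 109 in ML).

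**Figure D4:**
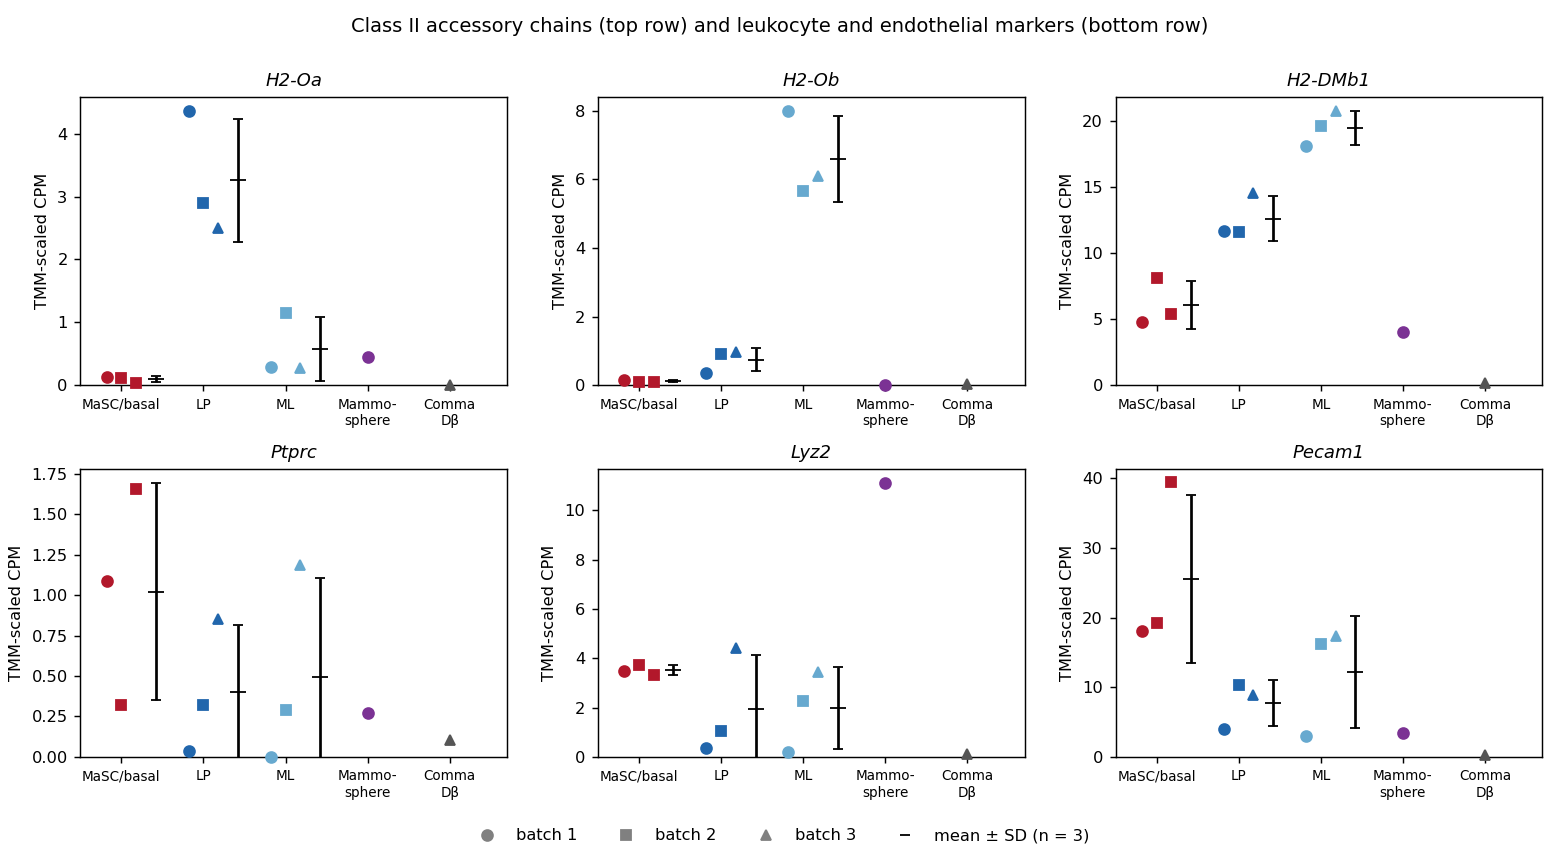
TMM-scaled CPM (vertical axes, linear from 0, SD bars truncated at 0) of *H2-Oa*, *H2-Ob* and *H2-DMb1* in the top row and of the leukocyte markers *Ptprc* and *Lyz2* and the endothelial marker *Pecam1* in the bottom row, by library, with marker shape for batch. *H2-Oa* is highest in LP (2.51 to 4.37) and *H2-Ob* in ML (5.66 to 8.00), and among LP and ML libraries *Ptprc* and *Lyz2* are highest in batch 3.

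The factors that assemble on class II promoters with *Ciita* showed no common direction. Of 7 tested, 1 was higher and 1 lower in MaSC/basal than in LP, and 2 were higher and 1 lower than in ML. Among all genes tested, 29.4% were higher and 28% lower than in LP, and 28.9% and 29.7% than in ML. *Nfyb*, a subunit of the Y box factor NF-Y, was at 84.4 to 102 CPM in MaSC/basal, between 28.0 and 32.2 in LP and between 32.5 and 52.0 in ML, a log2 difference of 1.62 (SE 0.17, adjusted p = 2.9e-05) from LP and a 2.21-fold difference from ML (adjusted p = 0.000249). *Rfx5*, at 12.4 to 14.8 CPM in MaSC/basal against 18.1 to 33.6 in ML, differed by -0.96 (SE 0.28, adjusted p = 0.0134). This call was lost without MaSC/basal replicate 2 (-0.89, adjusted p = 0.0504), without ML replicate 3 (-0.73, adjusted p = 0.0529) and without batch 3 (-0.75, adjusted p = 0.0577).

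Of 10 regulators of the interferon-γ response, 3 were higher and 3 lower in MaSC/basal than in LP, and 1 was higher and 4 lower than in ML. The shares over all genes tested were 29.4% higher and 28% lower against LP, and 28.9% and 29.7% against ML. *Socs1*, a feedback inhibitor of the pathway, showed the widest difference of the list, at 68.3, 56.5 and 51.5 CPM in MaSC/basal, 6.31, 4.86 and 4.11 in LP and 7.09, 5.95 and 5.15 in ML libraries. Its log2 difference was 3.52 (SE 0.21, adjusted p = 8.1e-07) from LP and 3.27 (SE 0.21, adjusted p = 9e-07) from ML. The receptor chains were lower in MaSC/basal, *Ifngr1* at 28.3 to 32.7 CPM against 66.4 to 98.8 in LP and 41.6 to 48.6 in ML, and *Ifngr2* at 17.7 to 22.2 against 42.5 to 80.2 and 40.9 to 60.7. *Irf1*, a target that drives class I genes, was not called, and replicates lay far apart, at 322, 482 and 151 CPM in MaSC/basal, 323, 110 and 186 in LP and 203, 169 and 171 in ML libraries. *Irf8* was lowest in LP, at 1.97 to 3.90 CPM against 6.77 to 8.55 in MaSC/basal and at least 9.55 in ML.

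T cells also need co-stimulation. *Cd80* and *Cd86* were not tested, with at most 0.0598 and 0.245 CPM in the primary libraries. *Icosl*, the ligand of ICOS, was at 12.5 to 16.6 CPM in MaSC/basal, between 2.24 and 3.33 in LP and between 2.57 and 3.55 in ML, with a log2 difference of 2.48 (SE 0.24, adjusted p = 1.3e-05) from LP. *Cd40* was higher in ML (1.27 to 1.67 CPM) than in MaSC/basal (0.373 to 0.565).

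Over all 61 genes of these 6 lists that were tested (of 72 listed), 10 (16.4%) were higher and 31 (50.8%) lower in MaSC/basal than in LP, and 6 (9.84%) were higher and 34 (55.7%) lower than in ML. Between LP and ML, 6 (9.84%) were higher and 18 (29.5%) lower in LP. Over all genes tested the shares lower were 28%, 29.7% and 17.5%, and the shares higher 29.4%, 28.9% and 14.3%. The count of 18 lower in LP was 28 without TMM scaling and 9 without batch 3.

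**Figure D5:**
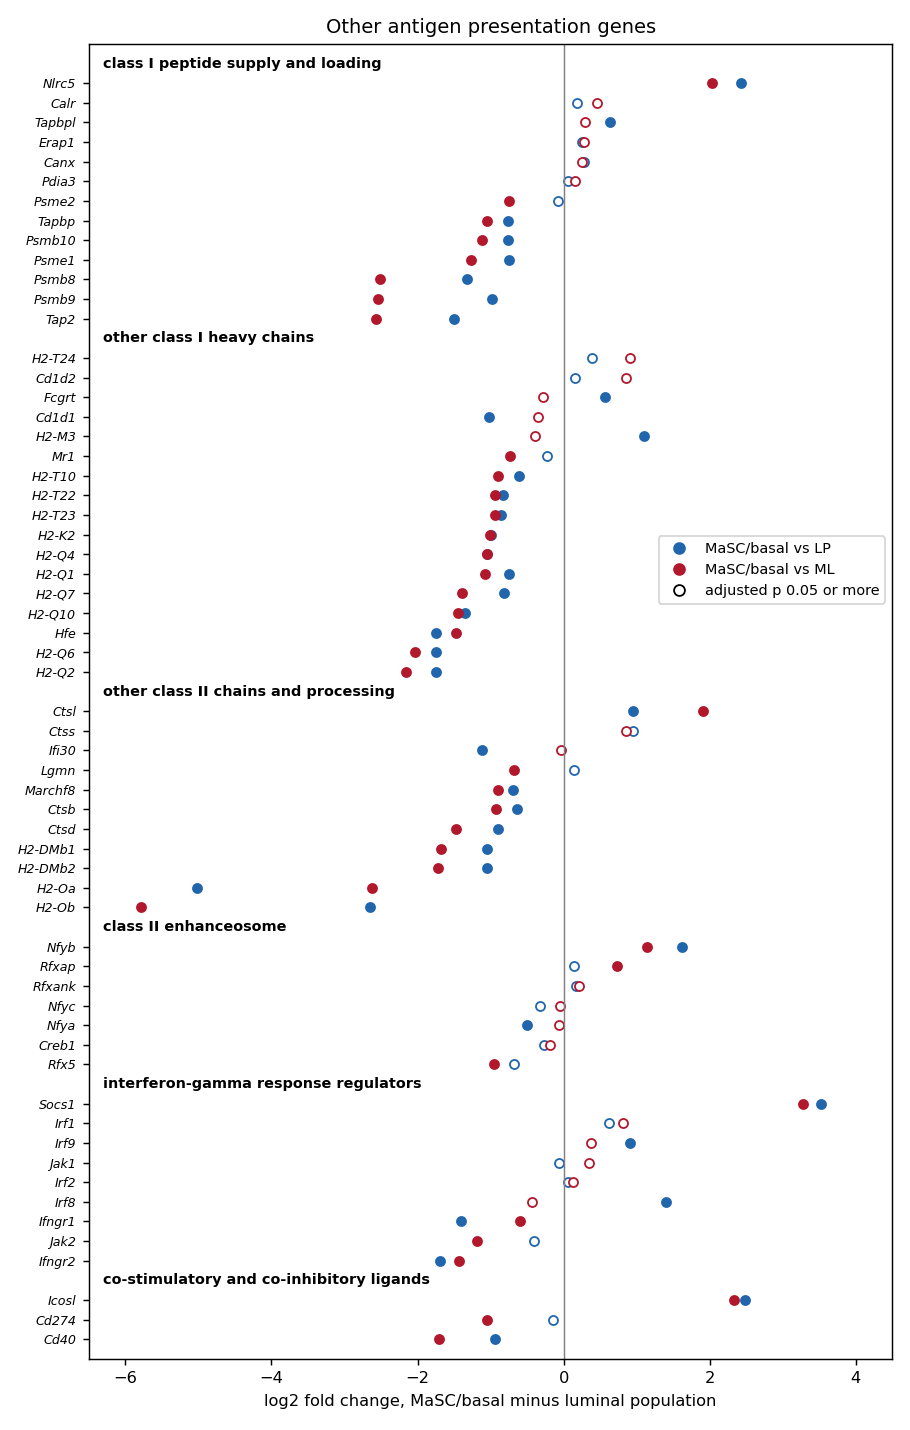
Log2 fold changes (horizontal axis, MaSC/basal minus luminal population) of other antigen presentation genes, by list, in blue against LP and in red against ML, open where the adjusted p was 0.05 or more. Most filled points of the peptide supply, heavy chain and class II processing lists lie left of 0, with *Nlrc5*, *Ctsl*, *Nfyb*, *Socs1* and *Icosl* on the right.

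Class II genes mark leukocytes, so the markers of these cells are given beside them. Summed over 23 leukocyte markers, the level was 17.6 to 22.5 CPM in MaSC/basal, between 106 and 147 in LP and between 131 and 149 in ML libraries, but *Lcp1* made up most of the luminal sum (102 to 139 CPM against 5.76 to 6.51 in MaSC/basal). Without *Lcp1* the sums were 11.8 to 15.9, 3.56 to 12.6 and 3.36 to 13.7 CPM. MaSC/basal overlapped with each luminal population only through LP 3 and ML 3, whose batch held no MaSC/basal library. Within batch 1 the sum was 12.6 CPM for MaSC/basal 1, against 3.56 for LP 1 and 3.36 for ML 1. Batch 2 gave 11.8 and 15.9 CPM for MaSC/basal 2 and 3, against 6.08 for LP 2 and 8.87 for ML 2. MaSC/basal was thus the higher population within each of these batches. Of 9 leukocyte markers tested, *Cd79a* and *Coro1a* were higher in MaSC/basal than in LP and ML, *Lcp1* was lower, and 6 were not called. The shares over all genes tested were 29.4% higher and 28% lower against LP, and 28.9% and 29.7% against ML. *Ptprc*, which encodes CD45 and was gated against in the sort, was at 1.09, 0.319 and 1.66 CPM in MaSC/basal, 0.0352, 0.318 and 0.854 in LP and 0, 0.292 and 1.18 in ML libraries. *Lyz2* was at 3.49, 3.74 and 3.33, then 0.352, 1.05 and 4.43, then 0.198, 2.28 and 3.46 CPM. *Cd79a*, of B cells, was at 0.610, 1.29 and 0.998 CPM in MaSC/basal and 0.107 to 0.425 in the luminal libraries, and *Cd3e*, of T cells, at 0.0199 to 1.01 CPM in all 9. *Itgax*, of dendritic cells, was at most 0.367 CPM and overlapped between the populations. *Adgre1*, of macrophages, was not tested, but at 0.373 to 0.508 CPM every MaSC/basal library was above the LP (0.0352 to 0.267) and ML (0.113 to 0.364) libraries. *Laptm5* was at 0.932 to 1.39 CPM in MaSC/basal, above every LP library (0.141 to 0.640) and overlapping with ML (0.0848 to 1.23), with log2 differences of 1.48 (adjusted p = 0.109) and 1.08 (adjusted p = 0.216). *Csf1r* overlapped between the populations and was not called.

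In LP and ML the order of the libraries for *Ptprc* and *Lyz2*, with replicate 3 highest and replicate 1 lowest, was also that of *Cd74* in both, of *H2-Aa* in both and of *H2-Ab1* in ML. Among the MaSC/basal libraries, *Cd74*, *H2-Aa* and *H2-Ab1* were all highest in replicate 3. Of the tested leukocyte markers, *Ptprc*, *Itgam*, *Csf1r*, *Laptm5*, *Lcp1* and *Cd53* were also highest there. The others were not: *Lyz2* was lowest there, *Cd79a* was highest in replicate 2 and *Coro1a* in replicate 1. The leukocyte sum without *Lcp1* was 12.6, 11.8 and 15.9 CPM in MaSC/basal replicates 1, 2 and 3, and the endothelial sum was 55.4, 48.0 and 100 CPM. Endothelial markers summed to 48.0 to 100 CPM in MaSC/basal, between 10.9 and 28.2 in LP and between 7.91 and 41.4 in ML libraries, with 5 of 6 higher in MaSC/basal than in LP and 2 of 6 than in ML. Among all genes tested, 29.4% were higher than in LP and 28.9% higher than in ML. The part of residual leukocytes or endothelium in the class II values was not tested. In bulk libraries, fewer cells of a type and less RNA per cell cannot be told apart.

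In both cultured libraries most of these genes were lower than in sorted MaSC/basal cells. With 1 library each, there was no test, and folds are against the mean of the 3 MaSC/basal libraries. The mammosphere library lay below all 3 MaSC/basal libraries for 8 of the 10 genes (8 of the 9 tested), within them for *H2-DMa* and above them for *H2-Eb1*, where 42% of all genes lay below and 40.8% above. *Cd74* was at 0.451 CPM (20 reads), 37.4-fold lower than in MaSC/basal. *H2-Aa* had 2 reads, a ratio of 0.0129 to the MaSC/basal mean (95% Poisson interval 0.00157 to 0.0468, for counting error only). *H2-Ab1*, its partner chain, was at 1.46 CPM (65 reads), 2.23-fold lower. Per length, the α and β chains were at mean levels of 3.26 and 2.73 RPKM in MaSC/basal libraries and at 0.042 and 1.23 RPKM in the mammospheres. *Ciita* was at 0.586 CPM (26 reads), 2.60-fold lower, and *H2-Eb1* at 0.383 CPM (17 reads). *Tap1*, at 14.9 CPM, was 5.36-fold lower, against 2.06-fold for *H2-K1* (256 CPM), 1.65-fold for *H2-D1* (329 CPM) and 1.29-fold for *B2m* (303 CPM). Among the related genes, *Nlrc5* was at 1.89 CPM and *Socs1* at 1.40 CPM, both under every primary library, and *Ctsl* was at 3430 CPM, above all of them. Leukocyte markers without *Lcp1* summed to 36.9 CPM in this library, of which *Cd53* made up 15.0 CPM (at most 0.683 in the primary libraries) and *Lyz2* 11.1 CPM. Like these, *Csf1r* (5.25 CPM), *Itgam* (1.58 CPM) and *Fcer1g* (0.541 CPM, 24 reads) were above every primary library. The other leukocyte markers were not, with *Ptprc* at 0.270 CPM.

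The Comma Dβ library lay below all 3 MaSC/basal libraries for 9 of the 10 genes (8 of the 9 tested), where 42.2% of all genes did. *H2-D1* was at 35.5 CPM, 15.2-fold lower, and *H2-K1* at 121 CPM, 4.37-fold lower, against 1.79-fold for *B2m* (217 CPM), which is little polymorphic, and 4.67-fold for *Tap1* (17.1 CPM). *H2-Aa* and *H2-Eb1* had 0 reads, which at a floor of 3 reads (0.102 CPM) makes them at least 34.1-fold and at least 2.60-fold lower than the MaSC/basal mean. *Cd74* was at 0.510 CPM (15 reads), 33.1-fold lower, *H2-Ab1* at 0.442 CPM (13 reads) and *Ciita* at 0.510 CPM (15 reads). *H2-DMa* was at 2.82 CPM, within the MaSC/basal range. *H2-DMb1* was at 0.170 CPM, under every other library. Of the 23 leukocyte markers, 11 were at 0 in this line, whereas *Cd53* was at 3.30 CPM (97 reads), above every primary library. No MaSC/basal library was in the batch of Comma Dβ. Haplotype, line, culture, pregnancy stage and batch cannot be told apart in these values.

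Over the 11 libraries, the genes with a symbol whose log2 CPM ran most like that of *B2m* were *Agtr1a* (Pearson r = 0.959), *Prss22* (0.957), *Itih5* (0.956), *Fgg* (0.953) and *Rbm20* (0.953), none of them in the lists, and each of these was highest in ML. Between *Itih5* and *Fgg* ranked 1 gene without a symbol. Those most like *Cd74* were *Stau1* (0.973), *Ppp1r12c* (0.969), *H2-Aa* (0.964), *Gpr3* (0.948) and *Neurl3* (0.947). Within the set, *H2-K1* ran with *H2-D1* (r = 0.954), whereas *Ciita* ran with *Cd74* at 0.492. These are descriptions over libraries that fall into 5 sample types and share batches.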

How the data were processed

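RNA-seq counts of 11 mouse mammary libraries were used. The authors aligned single-end reads to mm10 with Rsubread and counted them on Entrez genes by featureCounts, and the deposited counts are raw reads per gene, neither normalized nor filtered, beside an exon length for each gene. The treatment of reads that map to several genes and the use of strand are not given in the sources used here. Per the labels, the processing notes name CASAVA 1.8.0, edgeR 3.6.2 and limma 3.20.5, and the kit was version 1 in batch 1 and version 2 in the others. Symbols and positions came from RefSeq (25275 of 27179 genes).

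From these counts, TMM factors were computed in R 4.3.3 with edgeR 4.0.16, and its quasi-likelihood test was run on all 11 libraries, with 5 group means and no other term, over the 15422 genes that exceeded 0.5 CPM in 3 or more of them. The study used limma for such comparisons, and limma voom (limma 3.58.1) and DESeq2 1.42.0 were alternatives. MaSC/basal, LP and ML were compared pairwise. P-values were adjusted by Benjamini-Hochberg over all genes tested and called under 0.05, and a value called higher or lower passed this test. SE is the log2 fold change over the square root of the F statistic. Scripts were tested on simulated data.

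Replicates were numbered in accession order, and the batch in the labels pairs them. Deviations from the group means correlated between LP and ML of the same batch (r = 0.320, 0.313 and 0.526), and between -0.118 and 0.289 for MaSC/basal with LP or ML of its batch. No replicate pair agreed within sampling noise (chi-square of 50.9 to 184 per gene). At 0.5 CPM the depth gives about 10 reads in the shallowest library.

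The genes, the related gene lists (peptide supply, heavy chains, class II processing, enhanceosome, interferon-γ regulators, co-stimulation) and the marker lists were chosen with earlier results of these data known. Named from each related list were the called genes with the largest change in each direction (at most 3, at least 1 CPM), and *Nlrc5*, *Rfx5* and *Irf1*. One gene that this rule names is not reported here. Other genes named (*Ctss*, *Cd80*, *Cd86*, *Lyz2*, *Cd53*, *Itgam*, *Fcer1g*) were chosen after their values were seen. For *B2m* and *Cd74* the 5 genes with the highest Pearson r of log2 CPM (prior count 2) among those with a symbol were named. *H2-L*, *H2-T9*, *H2-Ea-ps* and *Hbb-bt* matched no gene. Alternatives were other scaling, filters and tools, the 9 primary libraries alone, batch as a replicate block, leaving out each primary replicate, and, chosen after seeing the data, leaving out LP 3 and ML 3. The cultured libraries carry no test. Intervals and floors hold for counting error only: with no molecular identifiers, reads are not separate molecules.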

Additional observations from a re-analysis of the deposited data

How the results depend on the processing

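The number of the 9 antigen presentation genes lower in MaSC/basal than in LP (2) was 1 without TMM scaling, and 1 to 3 when each replicate was left out in turn, with the low value without MaSC/basal replicate 1. The related genes higher in MaSC/basal than in ML (6) were 10 by the DESeq2 Wald test, and those lower in LP than in ML (18) were 28 without TMM scaling and 9 without batch 3, and 12 to 19 over the replicates left out. Differences that were not called changed sign in some settings. Without TMM scaling *Ciita* in LP against ML was -0.072. Over replicates left out, *H2-DMa* in MaSC/basal against LP ran from -0.061 to 0.26, *Tap1* in MaSC/basal against ML from -0.086 to 0.074, and in LP against ML *H2-Aa* ran from -0.96 to 0.45, *H2-Ab1* from -0.72 to 0.12 and *Ciita* from -0.33 to 0.37. The replicate block by batch changed the calls given for *H2-Aa* (2.22 and 2.03) and *B2m* (-0.44) and no other call among these genes. *H2-Aa* against LP also passed by limma voom (1.81, adjusted p = 0.0222) and DESeq2 (1.51, adjusted p = 0.0461), without LP replicate 3 (2.30) and without ML replicate 1 or 3, and against ML by limma voom (1.68, adjusted p = 0.0233) and without ML replicate 3 (2.00). Of 105 calls of related genes, 86 passed in all 18 alternatives and 0 changed sign. Depth limits *H2-Eb1*, *Ciita* and *H2-Aa*. The causes of these changes were not tested.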
